A study of Homo sapiens with 8 samples.

Results

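EZH2 binding was examined at EGFL7, the gene that carries miR-126 in an intron, in a pair of myeloma lines that differ in MMSET. The members are the peaks of the 4 deposited EZH2 lists that share a base with a window of 40 kb on hg18 chromosome 9, from 138660000 to 138700000, in which miR-126 lies near position 138684900. The window held 37 of the 19721 peaks in the 4 lists, of which NTKO run 1 had 12, NTKO run 2 had 9, TKO run 1 had 1 and TKO run 2 had 15. It was set against 200 kb on each side. The rule is a position and uses no peak value, but the locus was chosen with earlier results of these data known.

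Both lines come from KMS11, a multiple myeloma line with the t(4;14) translocation, which joins MMSET to the immunoglobulin heavy chain locus. In NTKO cells the wild-type MMSET allele was inactivated, and MMSET remained high from the rearranged allele. In TKO cells the rearranged allele was inactivated, and MMSET was low from the wild-type allele. Both are therefore engineered derivatives of the same parent line, and they were used at passage 15-20. Each line had 2 ChIP-seq samples made with an antibody to EZH2, here called run 1 and run 2, which the study describes as independent biological replicates.

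EZH2 is the catalytic subunit of Polycomb repressive complex 2, which trimethylates lysine 27 of histone H3, and its binding is typical of transcriptionally silent promoters and of broad silent domains. MMSET (NSD2) dimethylates lysine 36 of the same histone, a mark that impedes the action of the complex on the nucleosome that carries it. EGFL7 codes for a secreted protein of endothelial cells, and its transcript is the source of miR-126, a microRNA best known from endothelium and blood cells. The hairpin yields a product from each arm, miR-126-3p and miR-126-5p, the latter formerly written miR-126*, which is the arm the study follows.

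Both mature sequences are shown because they are the products of the transcript that crosses the window. They are RefSeq sequences of the plus strand of GRCh38.p14, at chr9:136670616-136670636 for the 5p arm and chr9:136670653-136670674 for the 3p arm, and capitals mark the seed (bases 2 to 8). The arms share no seed.
hsa-miR-126-5p: cAUUAUUAcuuuugguacgcg
hsa-miR-126-3p: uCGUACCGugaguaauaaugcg

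RefSeq lists 2 start sites for EGFL7, both on the plus strand, the first 11.7 kb and the second 7.69 kb upstream of the miR-126 hairpin in GRCh38. Their promoters (250 bases before to 50 after the start, at chr9:136658606-136658905 and chr9:136662666-136662965 in GRCh38.p14) are shown because the EZH2 peaks of the window run through the stretch upstream of miR-126. Capitals mark CpG dinucleotides, the usual feature of the sequences that recruit Polycomb complexes in mammals.
EGFL7 promoter 1: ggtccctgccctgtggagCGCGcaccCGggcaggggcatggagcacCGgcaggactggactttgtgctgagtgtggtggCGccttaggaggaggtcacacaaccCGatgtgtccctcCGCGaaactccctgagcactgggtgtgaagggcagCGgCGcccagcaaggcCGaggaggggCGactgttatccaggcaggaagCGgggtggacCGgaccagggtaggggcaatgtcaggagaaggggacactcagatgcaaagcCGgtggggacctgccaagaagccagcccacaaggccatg
EGFL7 promoter 2: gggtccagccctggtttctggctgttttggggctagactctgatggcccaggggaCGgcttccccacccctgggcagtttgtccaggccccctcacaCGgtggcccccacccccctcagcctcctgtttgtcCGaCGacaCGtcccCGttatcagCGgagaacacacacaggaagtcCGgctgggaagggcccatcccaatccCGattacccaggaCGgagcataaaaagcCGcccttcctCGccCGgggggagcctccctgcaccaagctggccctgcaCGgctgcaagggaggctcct
Both promoters were GC-rich without being unusually rich in CpG. GC content was 65.7% in each, a level that 31.3% of the 35116 promoters in the table reached, against a median of 58.7%. They held 15 and 14 CpG dinucleotides, and the median of all promoters was 14. A run of 5 G or C (GGGGG or CCCCC, which are the same motif on the 2 strands) was absent from the first promoter and occurred at 6 overlapping positions in the second, and 58.4% of all promoters held at least 1. No position was carried over between GRCh38 and hg18, so the peaks are not assigned to a promoter, exon or intron here.

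The lists differ in size, which bears on every value below. NTKO run 2 had 10582 peaks, TKO run 2 had 5516, NTKO run 1 had 2972 and TKO run 1 had 651. The number of reads behind each list was not used here, so the depth is unknown, and for the heights no scaling to library size is stated. A stretch without a peak in TKO run 1 may have had signal below the calling threshold (a −log10 p of 15 and a 2-fold difference from input).

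EZH2 peaks were found at EGFL7 in all 4 libraries, and in each they ended upstream of or close to the miR-126 position, with no further peak up to the end of the window. The peaks covered 46.1% of the bases of the window in NTKO run 2 and 29.8% in NTKO run 1. In TKO cells they covered 25.6% in run 2 and 1.08% in run 1. Both NTKO libraries thus lay above both TKO libraries, and TKO run 2 lay closer to NTKO run 1 than to TKO run 1. The map of peaks along the window shows peaks at many of the same places in 3 of the libraries. The single peak of TKO run 1 lies at the tallest summit of the run 2 libraries, which is not the tallest of NTKO run 1.

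**Figure D1:**
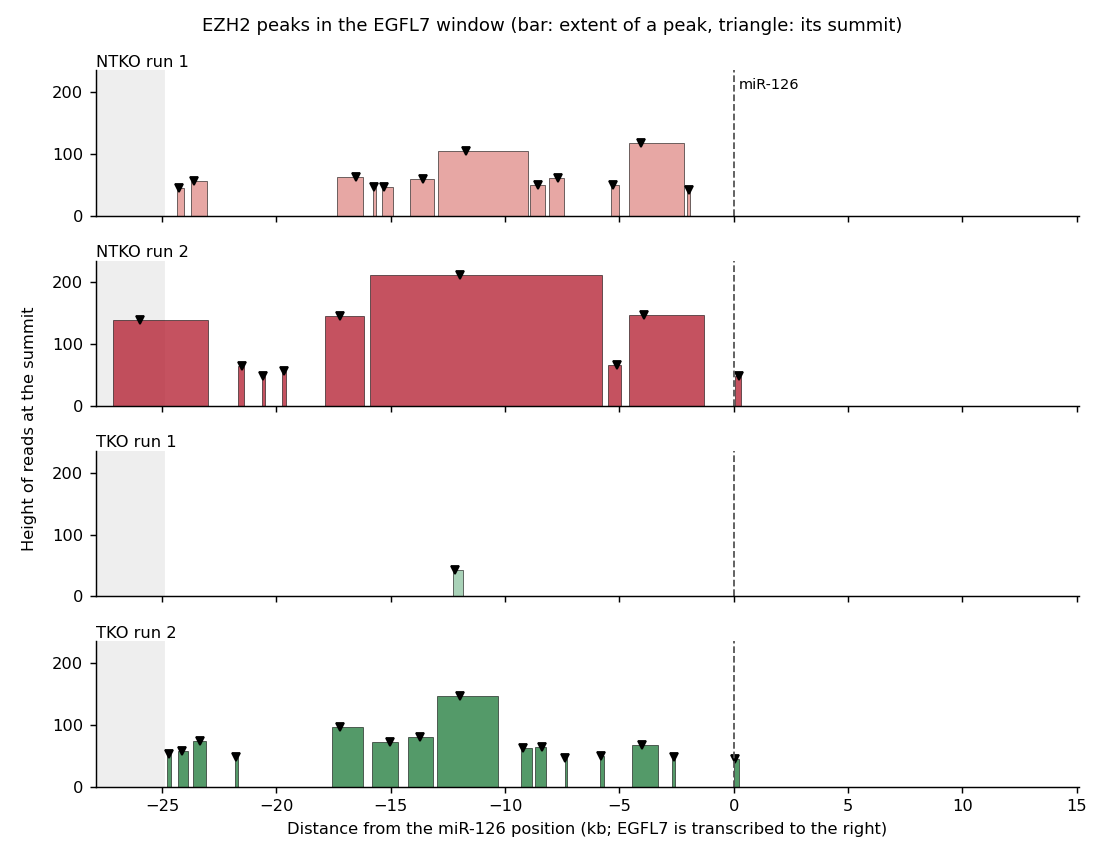
EZH2 peaks in the EGFL7 window in each library, against the distance in kb from the miR-126 position (dashed line). Each bar spans a called peak and is drawn to the height of reads at its summit (triangle), which is not the signal along the bar. The grey margin lies outside the window. The tallest summit of NTKO run 2 (211), TKO run 2 (147) and TKO run 1 (42) stands about 12 kb upstream of miR-126, and no peak lies in the last part of the window.

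The center of the locus was a merged region from 138668972 to 138679213, 10242 bp long, 1 of 10 merged regions that touch the window and the only such region found in every list. Across the genome 2.75% of the 11858 merged regions (peaks of any list joined where they share a base) had a peak in all 4. In NTKO run 2 the region was nearly filled by 1 peak of 10179 bp with a summit height of 211. NTKO run 1 had 6 peaks over the same stretch with a highest summit of 104. TKO run 2 had 7, with a highest summit of 147, and TKO run 1 had 1, with a height of 42. The run 2 libraries were therefore the tallest, and the lines overlapped, since TKO run 2 was above NTKO run 1. Of the 326 regions in every list, 12.0% had both NTKO heights above both TKO heights, and the EGFL7 region was not among them.

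The position of this summit hardly differed between the run 2 libraries. It lay at 138672927 in NTKO run 2 and 18 bp away, at 138672909, in TKO run 2. The summits of NTKO run 1 (138673187) and TKO run 1 (138672699) were 260 and 228 bp from that of NTKO run 2. All of them were 11.7 to 12.2 kb upstream of the miR-126 position. The first EGFL7 start lies 11.7 kb upstream of the hairpin in GRCh38, and whether the summit falls on it was not tested.

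The mean level of reads over the peak that holds each summit gave the same order as the heights, at 85.9 in NTKO run 2, 76.2 for TKO run 2, 65.3 for NTKO run 1 and 33.4 for TKO run 1. The −log10 p of these peaks was 69.7 and 62.0 in the NTKO and TKO libraries of run 2, and 44.1 and 19.9 in those of run 1. Beside the summit peak, the central region of NTKO run 1 held 5 narrower peaks with heights of 47 to 61. TKO run 2 held 6, with heights of 47 to 81, the tallest from 138670650 to 138671729. Within the NTKO run 2 peak, 67.5% of the bases were under the peaks of NTKO run 1 and 58.7% under those of TKO run 2, and 4.25% were under the TKO run 1 peak.

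Other summits of NTKO run 2 stood on either side of the central region. A peak from 138680336 to 138683579 had a summit height of 147, at 138680954, which is 3.95 kb upstream of miR-126. In NTKO run 1 this was the tallest peak of the window, with a height of 117 and a summit 92 bp away. TKO run 2 had a height of 68 there, with a summit 56 bp away, and TKO run 1 had no peak. Here both NTKO libraries exceeded TKO run 2, and the log2 height ratio between the run 2 libraries was 1.11, against 0.52 in the central region. The difference between these ratios was not tested. Nor was it counted how many of all merged regions had both NTKO heights above that of TKO run 2 and no TKO run 1 peak.

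Upstream of the central region, a peak of NTKO run 2 from 138667020 to 138668737 had a height of 146. TKO run 2 reached 97 with a summit only 2 bp from it, and NTKO run 1 reached 63. At the upstream edge of the window, a peak of NTKO run 2 from 138657754 to 138661898 was shared with the flank. Its summit, with a height of 139 at 138658928, was outside the window and within 1 bp of a TKO run 2 summit (height 89). NTKO run 1 reached 59 in that region and TKO run 1 had no peak in either. At both places TKO run 2 was higher than NTKO run 1, as in the central region.

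At miR-126 itself the peaks were few and low. NTKO run 2 had a peak from 138684940 to 138685228 with a height of 49 (−log10 p of 17.9). TKO run 2 had 1 from 138684911 to 138685130 with a height of 45 (−log10 p of 16.6). Neither run 1 library had a peak there, and the last peak of NTKO run 1 ended 1.91 kb before the miR-126 position and that of TKO run 1 11.8 kb before it. The heights of 49 and 45 are below the medians of the whole lists (63 for NTKO run 2 and 65 for TKO run 2), and both p-values were near the calling threshold. At the hairpin, then, only the run 2 libraries had a call, and in each line the run 2 list was also the longer one. The share of all regions with this pattern was not counted.

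Of the remaining regions, 1 was found in both NTKO libraries and in neither TKO library. It lay from 138679379 to 138679948, with heights of 49 in run 1 and 66 in run 2. Of all merged regions, 4.70% had this pattern. The regions with a peak in NTKO run 2 alone numbered 3, with heights of 48 to 65, a pattern of 57.7% of all regions. A single region, with a height of 48, had a peak in TKO run 2 alone, as did 10.6% of all regions. Each of these was narrow, and the plot of heights by region shows them at the lower end of the scale.

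**Figure D2:**
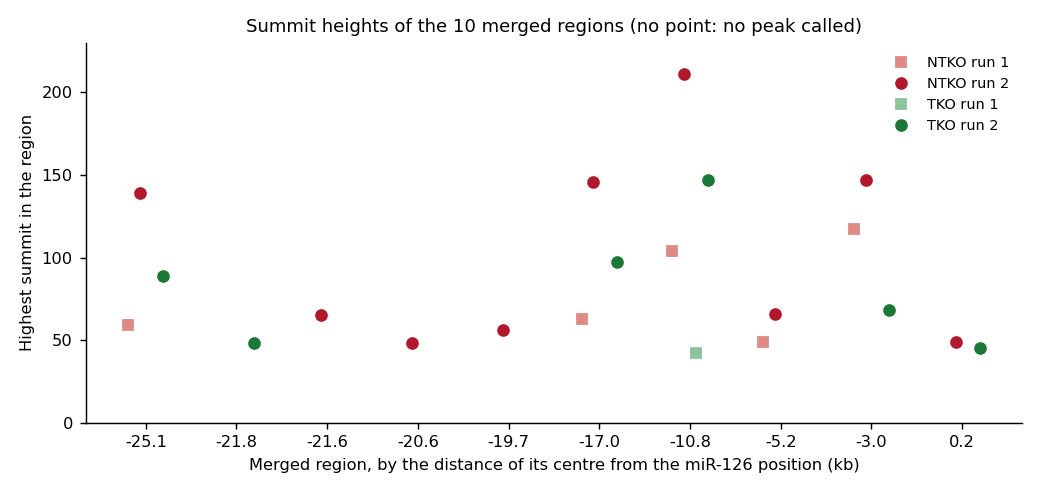
Highest summit in each of the 10 merged regions that touch the window (vertical axis, height of reads), ordered along the chromosome and labelled by the distance of the region's center from the miR-126 position in kb. Squares are run 1 and circles run 2, and a missing point means that no peak was called. TKO run 1 has its only point, 42, in the central region. NTKO run 2 is the tallest in every region in which it has a peak.

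Base by base, the peaks of the smaller lists lay almost entirely inside those of NTKO run 2, the largest list. Of the 10225 bases of the window under a TKO run 2 peak, 97.8% were also under an NTKO run 2 peak, while of the 18451 bases under an NTKO run 2 peak 54.2% were under a TKO run 2 peak. Over the whole lists these shares were 80.8% and 34.8%. Of the 11940 bases of NTKO run 1, 99.8% were within NTKO run 2 and 69.5% within TKO run 2, against 94.7% and 63.6% over the whole list. The 433 bases of TKO run 1 were covered in every other library. Only 222 bases were found in a TKO library and in no NTKO library, all from TKO run 2, and 8471 bases were found in NTKO cells alone, 3615 of them in both runs. Bases under NTKO peaks alone made up 45.3% of all bases under a peak in the window and 60.3% of those in the whole lists. For TKO peaks alone the shares were 1.19% and 7.50%. The lists of both lines thus overlapped more at EGFL7 than over the whole lists, a difference that was not tested, and the unequal shares also follow the sizes of the lists. The window has a peak in every list, whereas 57.7% of all merged regions had a peak in NTKO run 2 alone. Overlap was not compared with other windows that have a peak in every list.

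Covered length did not overlap between the lines, and neither did median width or the excess of covered share over the flanks, which are given further on. NTKO cells had a mean of 15.2 ± 4.60 kb (SD, n = 2) and TKO cells one of 5.33 ± 6.92 kb (SD, n = 2), a difference of 9.87 kb. The groups did not overlap, which gave an exact permutation p of 0.333 (two-sided), the smallest that 2 samples against 2 allow. The same order, with both NTKO runs above both TKO runs, held in 18.2% of the 3498 windows of this length in the genome that had a peak in any list, and the opposite order in 1.17%. A peak in every list, as at EGFL7, was found in 8.06% of them (282 windows), and among these 43.3% had both NTKO runs above both TKO runs. The difference of 9866.5 bp became 4970.5 bp without TKO run 1 and 14762.5 bp without TKO run 2. It was 13122 bp without NTKO run 1 and 6611 bp without NTKO run 2, with the same direction each time.

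The number of peaks did not follow the covered length. NTKO cells averaged 10.5 ± 2.12 peaks (SD, n = 2) and TKO cells 8 ± 9.90 (SD, n = 2), and the exact permutation test gave p = 1 (two-sided). In run 1 the NTKO list had 11 more peaks than the TKO list, and in run 2 it had 6 fewer. Without TKO run 1 the difference of 2.5 peaks turned to -4.5, and without TKO run 2 it was 9.5. The wide peaks of NTKO run 2 are single entries where TKO run 2 has several, and joining the peaks of a list that lie within 1 kb of each other left 3 and 4 in the NTKO runs and 1 and 7 in the TKO runs. Median width was 659.5 bp and 569 bp in the NTKO runs, and 432 bp (1 peak) and 470 bp in the TKO runs. These did not overlap either (exact permutation p = 0.333, two-sided). Over the whole lists the median widths did overlap, at 344 and 377 bp in NTKO runs 1 and 2 and 275 and 352 bp in TKO runs 1 and 2. How many genome windows had the same order of median width was not computed.

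NTKO run 2 had the highest summit of the window, 211, followed by TKO run 2 with 147, NTKO run 1 with 117 and TKO run 1 with 42. On the log2 scale NTKO cells had a mean of 7.30 ± 0.60 (SD, n = 2) and TKO cells one of 6.30 ± 1.28 (SD, n = 2). The difference of 1.00 was smaller than the spread between the TKO runs (exact permutation p = 0.667, two-sided). Without TKO run 1 it was 0.10, without NTKO run 2 0.57 and without TKO run 2 1.90, so its size rests on single libraries. Relative to the median of its own list, NTKO run 2 reached 3.35 times, TKO run 2 2.26 times, NTKO run 1 2.25 times and TKO run 1 0.955 times. The whole list of NTKO run 2 had 72 higher peaks, that of NTKO run 1 had 129 and that of TKO run 2 had 182. TKO run 1 had 378 higher peaks among its 651, so the tallest EGFL7 peak stood high in 3 lists and below the middle of the fourth. The median height of the window's peaks lay near that of the whole list in each library. In NTKO cells it was 52.5 against 52 in run 1 and 66 against 63 in run 2. In TKO cells it was 42 (1 peak) against 44 in run 1 and 63 against 65 in run 2.

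Set against the size of each list, the order of the lines was not kept. NTKO run 1 had 0.579% of all its covered bases in the window, TKO run 2 had 0.302%, NTKO run 2 had 0.234% and TKO run 1 had 0.141%. TKO run 2 was thus above NTKO run 2 by this measure (exact permutation p = 0.667, two-sided, for the difference between the lines). With the 651 highest peaks of each list, the window had 6343 and 17041 covered bases in the NTKO runs and 433 and 2634 in the TKO runs. This keeps the whole list of TKO run 1 but only the tallest peaks of the longer lists. The bases that those peaks cover in total were not compared, so the lists are equal in number only.

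The central region could also be tested beside the other regions with a height in every library. Its log2 height was 0.91 higher in NTKO than in TKO cells (SE 0.84, limma, Benjamini-Hochberg adjusted p = 0.944, n = 2 per line), and the median over all 326 such regions was 0.55. With limma 0 of the 326 regions (0%) passed an adjusted p of 0.05 and 0 had an unadjusted p under 0.05, so this fit without a block gave no call. The EGFL7 region was taller in NTKO cells in both runs, by 1.31 in run 1 and 0.52 in run 2 on the log2 scale, and 71.2% of the 326 regions had that direction in both runs. After heights were centred on the median of each library, a setting chosen after seeing the data, the difference fell from 0.91 to 0.27 (SE 0.23, limma adjusted p = 0.745), and the median of all regions went from 0.55 to -0.09. In length the region was exceeded by 12 of the 326, whose median was 2292 bp.

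**Figure D3:**
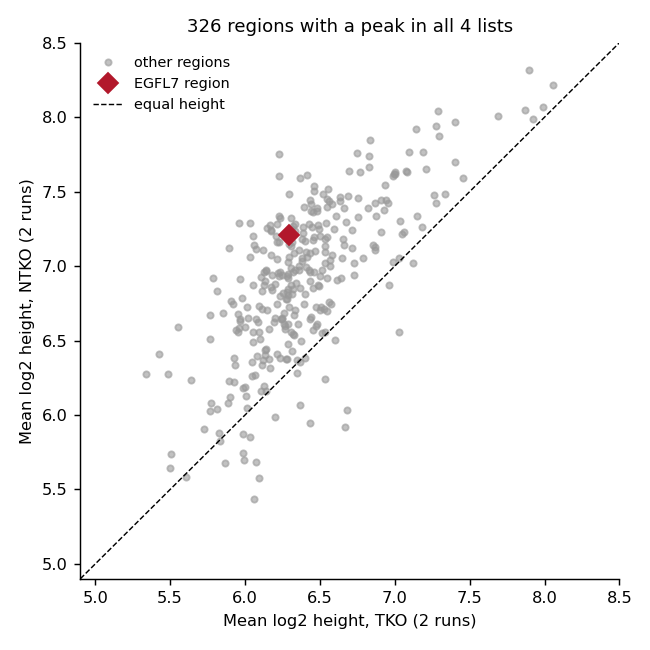
Mean log2 height over the 2 runs in TKO cells (horizontal axis) and NTKO cells (vertical axis) for the 326 merged regions that every list holds, with equality as a dashed line. The EGFL7 region (diamond) lies above the line by 0.91, within the cloud of other regions, of which 45 have a larger difference.

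In 3 of the libraries the EGFL7 peaks were the downstream end of a longer run of peaks. Upstream (the left flank) 82 peaks of NTKO run 2, 47 of TKO run 2, 37 of NTKO run 1 and 2 of TKO run 1 shared a base with the 200 kb. Downstream (the right flank) the numbers were 13, 9, 7 and 2. Peaks covered 47.2% of the upstream flank for NTKO run 2, 13.9% for TKO run 2, 10.2% for NTKO run 1 and 1.15% for TKO run 1. Downstream it was 6.94%, 4.42%, 2.90% and 0.266% in the same order. In the RefSeq order of genes NOTCH1, a receptor of cell fate decisions, is the nearest protein-coding gene upstream of EGFL7, with genes for noncoding RNAs between them. AGPAT2, an acyltransferase of phospholipid synthesis, is the next downstream.

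**Figure D4:**
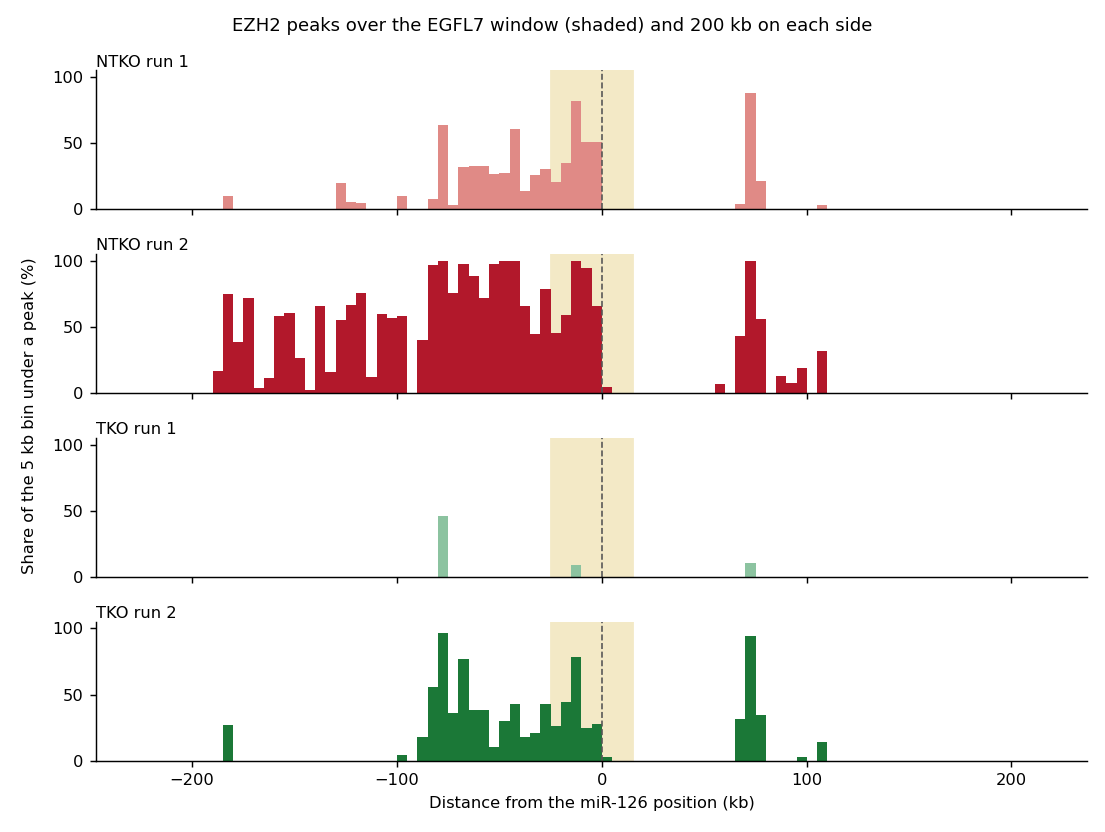
Share of each 5 kb bin under an EZH2 peak (vertical axis, %) across the window (shaded) and the 200 kb on each side, against the distance in kb from the miR-126 position (dashed line), in each library. Peaks run up to the miR-126 position and stop there in the run 2 libraries, and the next peak lies 57.1 to 83.5 kb beyond the last peak of the window, depending on the library.

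The covered share of the window exceeded that of both flanks together in 4 of 4 libraries. The ratio was 4.57 for NTKO run 1, 2.78 for TKO run 2, 1.70 for NTKO run 2 and 1.53 for TKO run 1 (exact sign-flip permutation p = 0.125 for the difference, two-sided, the smallest that 4 libraries allow). Against the upstream flank alone the window had a ratio of 2.93 for NTKO run 1 and 1.83 for TKO run 2, but 0.977 for NTKO run 2 and 0.942 for TKO run 1, with p = 0.5 in the same exact test. Against the downstream flank the ratio was 10.3 for NTKO run 1, 6.64 for NTKO run 2, 5.78 for TKO run 2 and 4.07 for TKO run 1.

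NTKO cells had a mean excess of covered share over both flanks of 21.2 ± 3.01 percentage points (SD, n = 2), and TKO cells one of 8.38 ± 11.3 (SD, n = 2). The lines did not overlap (exact permutation p = 0.333, two-sided), although in run 2 they differed by only 2.68 points. The share of genome windows with the same order of this excess was not computed. Peak density did not share this order. NTKO run 2 had 22.5 peaks per 100 kb in the window and 23.75 in the flanks, while TKO run 2 had 37.5 and 14. NTKO cells had a mean excess over the flanks of 8.87 ± 14.3 peaks per 100 kb (SD, n = 2) and TKO cells one of 12.5 ± 15.6 (exact permutation p = 0.667, two-sided). The difference of -3.63 changed sign without NTKO run 2 (6.50) and without TKO run 2 (7.37).

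**Figure D5:**
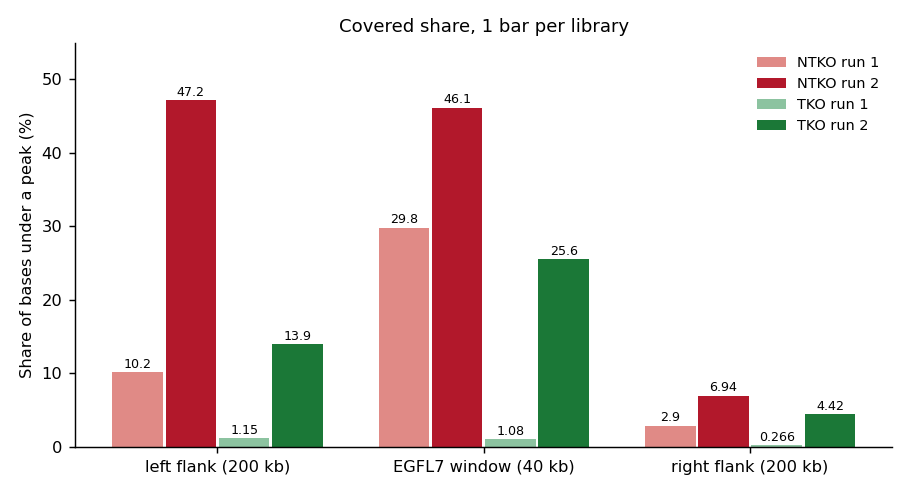
Share of bases under an EZH2 peak (vertical axis, %) in the upstream (left) flank, the EGFL7 window and the downstream (right) flank, with 1 bar per library and no pooled mean. The window is at 29.8% and 46.1% in the NTKO runs and 1.08% and 25.6% in the TKO runs.

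On the downstream side a long gap followed the window in every library. From the last peak of the window to the next peak on the chromosome NTKO run 2 had 57.1 kb, TKO run 2 had 68.1 kb, NTKO run 1 had 71.8 kb and TKO run 1 had 83.5 kb. On the upstream side the gap of NTKO run 2 was 0.492 kb, that of TKO run 2 was 0.869 kb and that of NTKO run 1 was 1.46 kb. TKO run 1, with the shortest list, had 63.6 kb. When peaks up to 5 kb apart were joined, the stretch through the central region ran for 88.1 kb in NTKO run 2, from 138597118 to 138685228, and for 86.3 kb in TKO run 2, from 138598864 to 138685130. The 2 lines thus had nearly the same borders in run 2, but peaks filled 80.9% of the stretch in NTKO cells and 42.4% in TKO cells. In NTKO run 1 the joined stretch was 15.4 kb, from 138667547 to 138682988, and it grew to 82.2 kb when peaks up to 10 kb apart were joined. In NTKO run 2 the same change lengthened the stretch to 186 kb, and in TKO run 2 it changed nothing, so the upstream border of NTKO run 2 depends on this distance.

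The tallest flank peaks stood at nearly the same places in every library. In the upstream flank NTKO run 2 had a summit of 211 at 138607665 and TKO run 2 one of 198 at 138607663. NTKO run 1 reached 107 at 138607629 and TKO run 1 reached 73 at 138608198. The region around it, from 138602765 to 138610377, was the only upstream region with a peak in all 4 lists. In the downstream flank the highest summits were 184, 140, 109 and 44 in the same order of libraries, between 138757012 and 138757581. There too a single region, from 138752859 to 138762354, was in all 4 lists. Of 80 merged regions upstream, 14 were in both NTKO lists and TKO run 2, a pattern whose share of all regions was not counted. Another 3 were in both NTKO lists only (4.70% of all regions) and 58 were in NTKO run 2 only (57.7% of all regions). The run 2 lists of both lines alone held 4, a pattern that was not counted over all regions either.

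Few places in the genome were as fully covered as EGFL7 in 3 of the libraries. When the genome was cut into 76448 windows of the same length, up to the last peak of each chromosome, NTKO run 1 had 18 that were covered at least as far as EGFL7, TKO run 2 had 76 and NTKO run 2 had 91, the EGFL7 window included. Those are 1.51%, 3.95% and 3.12% of the windows with any peak in that library. In TKO run 1 the 433 covered bases of EGFL7 were near the middle, with 51.4% of windows with a peak covered at least as far. By this cut the EGFL7 window was among the most extensively covered windows of both lines in run 2 and of NTKO cells in run 1. The window of the same length just upstream was covered further than EGFL7 in the same 3 libraries and is among those counted. The high coverage was therefore not particular to EGFL7. On chromosome 9 the windows were aligned on the EGFL7 window, and on other chromosomes on the chromosome start. Dense stretches elsewhere could thus be split between windows, which can favor the rank of EGFL7.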

How the data were processed

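EZH2 ChIP-seq peaks were analysed in NTKO and TKO cells, with 2 samples per line grouped by their labels. Reads had been aligned by the authors with BWA (genome hg18) and duplicates dropped, and ChIPseeqer then called each sample against its input. Of the signal columns the authors deposited, one is the average read level over the peak and the other the summit height. The score column they deposited is the log10 p-value of the peak, and the percent column deposited by the authors is the place of the summit in the peak. The authors' widths are end minus start, and covered bases were counted here with both ends included. The reads per library are not given in the lists, so single values carry no counting interval. The 4 input samples entered only through the calls.

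Peaks of the window, merged regions and covered bases were computed in Python 3.11.15 with numpy 2.4.6 and pandas 2.3.3, checked on simulated intervals. Values per library were compared by exact permutation tests. Log2 heights of regions in all 4 lists were fitted, with no block term, in R 4.3.3 using limma 3.58.1, also tested on simulated data. The rule for naming took all peaks of the window and, in the flanks, the highest peak of each list and regions found in both runs of a line, of which most are given as counts. The window and the measures were chosen with earlier results of these data known. Alternatives were stricter or equal lists, other flanks, other scalings of height, merging, placing by summit, leaving out a library and a replicate block. Genome windows, joined stretches and centring were added after seeing the values. Sequences are from RefSeq, GRCh38.p14, matched by symbol, with 2 promoters and 2 mature miRNAs found. GRCh37 was not used, and neither it nor GRCh38 is the build of the lists, which is hg18.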

Additional observations from a re-analysis of the deposited data

How the results depend on the processing

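The mean covered length was greater in NTKO cells under every alternative run, but as a share of all bases its list covers TKO run 2 (0.302%) was above NTKO run 2 (0.234%), and the lines overlapped. The difference ran from 4970.5 to 14762.5 bp when a library was left out. The peak number reversed to -0.5 with peaks within 1 kb merged, and leaving out a library moved it from -4.5 (without TKO run 1) to 9.5. The excess of peak density over the flanks reversed from -3.63 peaks per 100 kb to 0.125 at a −log10 p of at least 20 and to 4.25 with equal numbers of peaks, and ran from -14.6 to 7.37 when a library was left out. Regions found in every list went from 1 to 0 at a −log10 p of at least 20, where TKO run 1 had no peak left in the window, so no highest summit could be compared there. Without a library the count ran from 1 to 4, the 4 being without TKO run 1. The log2 difference of the highest summit ran from 0.10 to 1.90 when a library was left out.

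A replicate block on the shared run number left the differences the same, 9866.5 bp, 2.5 peaks, 1.00 on the log2 scale and -3.63 peaks per 100 kb, and exact tests of 2 pairs allow no p below 0.5. With the block, chosen for this fit after seeing the data, the central region had an SE of 0.41 in place of 0.84 and a limma adjusted p of 0.179. No region passed the adjusted p, and at an unadjusted limma p under 0.05 NTKO cells were above TKO cells in 77 regions and below them in 0. The adjusted p of the central region was 0.0700 to 1.00 when a library was left out, where a lone sample was assumed to vary like the other line. With the block and centred heights, chosen after seeing the data, 47 of the 326 regions passed, with NTKO cells above TKO cells in 8 and below them in 39, and the EGFL7 region did not (adjusted p = 0.206). Samples of the same run deviated together from their line means (r = 0.759 across regions), but the labels give only a shared number. Each line has 2 samples and the depth is unknown, so no comparison of the lines could reach p = 0.05 by an exact test.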
